A study of Arabidopsis thaliana with 6 samples.

Results

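Heat shock proteins and heat shock factors of Arabidopsis thaliana were followed in RNA-seq libraries of gemin2 mutant plants, 3 libraries, and of WT plants of the Col ecotype, 3 libraries. The members are the loci of the gene count table whose symbol begins with HSP, HSF or HSC once any AT prefix is taken off, 49 of 33602 loci. All plants were 9 days old, had been stratified at 4 °C and had grown at 22 °C on culture medium in continuous light, and the labels name no heat treatment. The sampled material was the whole plant, labelled as a pool of tissues. The labels give the mutant no allele, and headers of the authors' tables write gemin2-1. GEMIN2 belongs to the SMN complex, which assembles the snRNPs of the spliceosome, and the study compared the transcriptomes of the mutant and WT.

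Heat shock proteins are molecular chaperones, named by approximate size, that keep other proteins folded or return them to their folded state. HSP70 and HSP90 work in most compartments of the plant cell, HSP100 proteins thread aggregated or unfolded proteins through a ring, HSP60 forms a folding cage in mitochondria, and small HSPs hold unfolding proteins in solution. Heat shock factors (HSFs) are the transcription factors that switch these genes on in heat. Class A1 factors start the response, heat-induced class A factors such as HSFA2 extend it, and class B factors mostly repress. In unheated plants the constitutive chaperones are abundant and many small HSPs are nearly silent outside seeds.

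The 49 members comprise all 21 HSFs (15 of class A and 6 of classes B and C), 2 HSP100, 7 HSP90, 6 HSP70, 3 HSP60 and 7 small HSP genes, and 3 others. Of those 3, HSP1 is an HSP20-like protein. The other two are not heat shock proteins by function: HSPC300 (BRICK1) acts in actin regulation, and HSPRO2 is named after a nematode resistance gene of sugar beet. Several members have other names in the deposited table, where HSFA1A is HSF1, HSFB1 is HSF4, HSP90.3 is HSP81-3, HSP90.6 is Hsp89.1 and HSC70-1 is HSP70-1.

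Gene reads numbered 15467372, 17217408 and 16543178 in gemin2 libraries A, B and C, and 14051562, 16732098 and 14049163 in WT libraries A, B and C. GEMIN2 itself had 71, 77 and 74 reads in the 3 gemin2 libraries and 239, 262 and 221 reads in the 3 WT libraries (log2 fold change -1.82, adjusted p = 4.46e-09). Members took 0.483% to 0.504% of the gene reads in gemin2 and 0.464% to 0.485% in WT. Chloroplast and mitochondrial loci took 0.539% to 0.815% in gemin2 and 0.182% to 0.48% in WT, and the ribosomal RNA loci 0.551% to 0.787% and 0.23% to 0.461%, in each case without overlap. Leaving out the organelle loci left the counts of members called as they were. Markers of green tissue and root were present in every library, with LHCB1.3 (log2 0.59) higher in gemin2, RCA (-0.30) lower and RBCS1A (-0.04) not called. The phloem marker SUC2 was lower in gemin2 (-0.27, adjusted p = 0.000571 in edgeR), and the epidermis marker ATML1 (0.08) was not called. The petal and stamen marker AP3 had at most 2 reads in a library, and the seed markers CRU3 and OLEO1 had at most 6, while the seed marker CRA1 varied between 6 and 118 reads in gemin2 and between 6 and 163 in WT. Root markers moved in both directions, with PHO1 (0.24 log2) and SCR (0.21) higher in gemin2 and IRT1 (-0.68) and RHD6 (-1.07) lower. The part of tissue make-up in the results below was not tested, and in whole plants fewer cells of a type and less RNA per cell cannot be told apart.

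Of the 49 members, 41 had enough reads for the edgeR quasi-likelihood test, in which p-values were adjusted over all 20762 genes tested and called below 0.05. In gemin2, 14 of the 41 rose (34.1%), 2 fell (4.88%) and 25 did not pass. The 14 include HSFA9, whose counts coincide with those of a small nucleolar RNA locus. Of the 16 called members, 6 lost their call in at least 1 of 13 alternative settings. Over all genes tested, 17.8% were called higher and 18.9% lower, together 36.7%. Members were thus called in either direction about as often as other genes (39.0%), and more of their calls pointed upward. The median log2 fold change was 0.07 for the tested members and -0.00 for all genes tested, and the median absolute change was 0.12 against 0.18. The shifts were small for most members, as the plot by class shows, and 22 of 41 had read counts normalised to library size (CPM) that did not overlap between the genotypes (53.7%, against 48.1% of all genes tested). All gemin2 libraries lay above all WT libraries for 16 members (39.0%, against 23.4% of all genes tested).

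**Figure D1:**
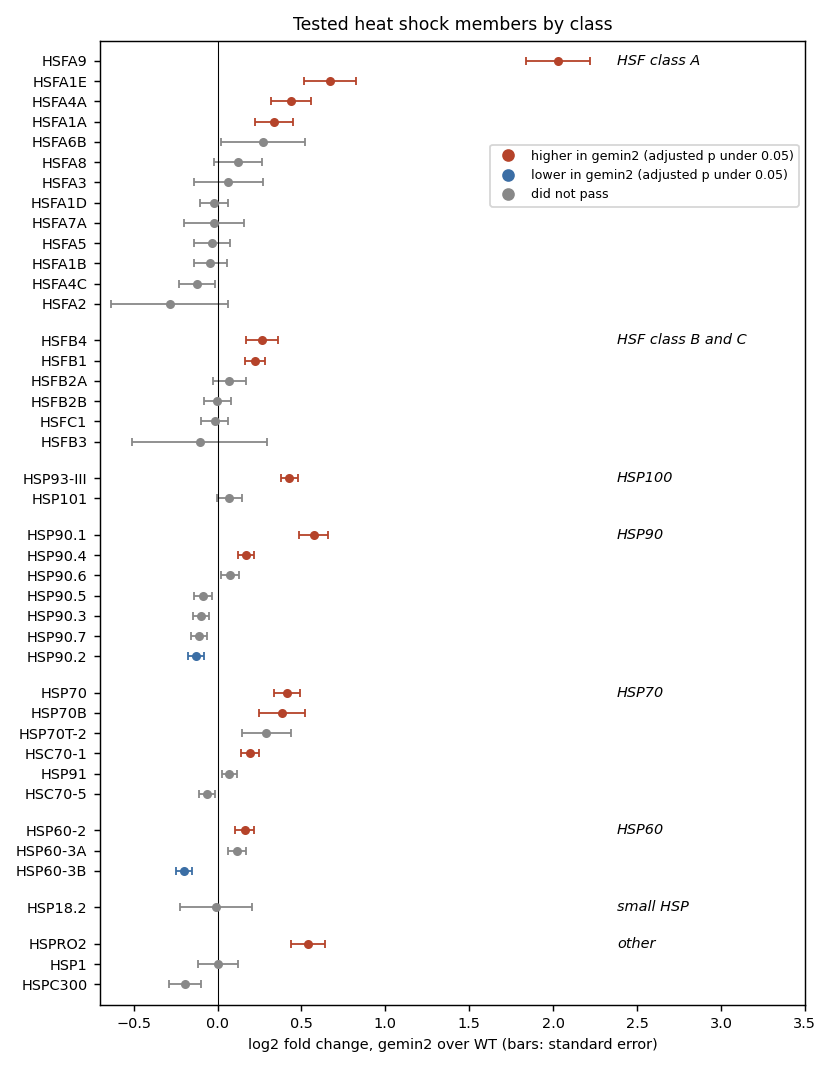
Log2 fold change of gemin2 over WT (horizontal axis) for the 41 tested members, grouped by class, with the standard error of the edgeR fit as bars. Red points rose, blue points fell and grey points did not pass; HSFA9 at 2.03 stands far to the right of the others, of which none exceeds 0.67.

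HSFs bind the heat shock element, alternating nGAAn units in opposite orientation. A row of such units was searched as GAANNTTCNNGAA, on both strands (TTCNNGAANNTTC on the other), in the 250 bases before the gene start. That start was the one of RefSeq or of the deposited gene models, whichever lay further upstream. This strict pattern stood before 105 of 27443 protein-coding genes (0.38%) and before 5 of the 49 members (10.2%): HSP90.1, HSFA2, HSFA7A, HSFA7B and HSP17.4. The windows of HSP90.1, HSFA2 and HSFA7A are shown because these 3 genes are known heat-induced targets of class A1 factors and had enough reads for a test. Capitals mark the element. They are RefSeq sequence of TAIR10.1 on the plus strand, at chr5:21352149-21352398, chr2:11135374-11135623 and chr3:19264891-19265140, and each runs up to the annotated start.
HSP90.1: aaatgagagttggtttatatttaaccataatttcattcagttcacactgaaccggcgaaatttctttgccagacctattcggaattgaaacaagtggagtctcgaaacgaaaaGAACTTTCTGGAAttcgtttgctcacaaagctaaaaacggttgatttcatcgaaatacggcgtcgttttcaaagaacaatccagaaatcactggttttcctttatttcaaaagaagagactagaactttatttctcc
HSFA2: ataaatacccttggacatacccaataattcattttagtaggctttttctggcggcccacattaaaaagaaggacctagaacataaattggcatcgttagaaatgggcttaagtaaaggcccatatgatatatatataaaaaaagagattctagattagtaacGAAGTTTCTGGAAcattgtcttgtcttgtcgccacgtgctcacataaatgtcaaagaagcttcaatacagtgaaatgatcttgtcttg
HSFA7A: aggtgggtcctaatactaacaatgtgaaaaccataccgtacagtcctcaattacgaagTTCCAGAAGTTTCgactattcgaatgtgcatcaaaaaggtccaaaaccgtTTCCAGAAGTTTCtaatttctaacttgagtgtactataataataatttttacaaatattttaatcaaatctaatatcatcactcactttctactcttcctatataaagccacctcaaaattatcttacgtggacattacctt
The element began 137 bases before the start of HSP90.1 and 88 before that of HSFA2, and HSFA7A carried it 2 times. Among members that rose the element was found before 1 of 14 (HSP90.1, 7.1%), among the 25 that did not pass before 2 (HSFA2 and HSFA7A), among the 8 not tested before 2, and before neither of the 2 that fell. A match is a description of these letters and not a bound site.

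Among the 13 tested class A factors, 4 rose in gemin2, HSFA9 with its shared counts among them, and none fell in the edgeR test. Over all genes tested, 17.8% rose and 18.9% fell. The 4 class A1 factors, which start the heat response, did not move as a group. HSFA1E had 5.28, 6.66 and 7.63 CPM in gemin2 libraries A, B and C, against 4.49, 3.74 and 4.15 CPM in WT A, B and C. Every gemin2 library was above every WT library, and the change was 0.67 on the log2 scale (SE 0.16, adjusted p = 0.00344). The authors' deposited table gives HSFA1E a log2 fold change of 0.667 with a false discovery rate of 0.0005. HSFA1A had 7.43, 7.35 and 7.75 CPM in gemin2 and 6.17, 5.81 and 5.87 CPM in WT, again without overlap (log2 0.34, SE 0.11, adjusted p = 0.0274). Its call was lost in DESeq2 (adjusted p = 0.15) and without any single library other than WT A (0.0507 to 0.0806). HSFA1D averaged 15.4 ± 0.958 CPM in gemin2 and 15.7 ± 1.19 CPM in WT (log2 -0.02, adjusted p = 0.864), and HSFA1B 11.8 ± 1.4 and 12.2 ± 0.442 CPM (log2 -0.04, adjusted p = 0.763; SD, n = 3 each). HSFA1B shares 44 bases with the gene of the syntaxin SYP21.

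HSFA4A, an activator linked to oxidative and salt stress, had 15.7, 13.5 and 12.7 CPM in gemin2 libraries A, B and C, against 8.28, 10.7 and 11.9 CPM in WT A, B and C. It was higher in each gemin2 library than in any WT library, narrowly so between gemin2 C and WT C (log2 0.44, SE 0.12, adjusted p = 0.00944). HSFA2 and HSFA7A, which heat induces strongly, were low in both genotypes. HSFA2 had 16, 10 and 12 reads in gemin2 and 8, 20 and 15 reads in WT (log2 -0.29, SE 0.35, adjusted p = 0.561). HSFA7A averaged 3.6 ± 0.773 CPM in gemin2 and 3.65 ± 0.192 CPM in WT (log2 -0.02, adjusted p = 0.936). The libraries of both genotypes overlapped for both genes. The other class A factors that did not pass, HSFA3, HSFA4C, HSFA5, HSFA6B and HSFA8, lay between -0.12 and 0.27 on the log2 scale.

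The largest fold change among the tested members belonged to HSFA9, a factor of seed maturation that acts under ABI3, and its counts coincide with those of a small nucleolar RNA. HSFA9 had 96, 104 and 112 reads in the gemin2 libraries A, B and C, and 28, 18 and 24 reads in the WT libraries (log2 2.03, SE 0.19, adjusted p = 1.38e-06). The groups were far apart, and the authors' deposited table lists the same log2 fold change, 2.03. HSFA9 lies on the plus strand of chromosome 5 (TAIR10, 21943983 to 21945651). The locus of U3D, a U3 snoRNA that guides processing of ribosomal RNA, lies on the opposite strand at 21945349 to 21945709 and shares 303 bases with it. The shared stretch begins 257 bases after the end of the HSFA9 coding sequence.

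U3D had the same number of reads as HSFA9 in 5 of 6 libraries and 113 against 112 in gemin2 C. Its log2 fold change was also 2.03 (adjusted p = 1.38e-06). U3B, another U3 locus on chromosome 5 that does not overlap HSFA9, had 93, 104 and 107 reads in gemin2 and 27, 14 and 20 in WT (log2 2.19, SE 0.21, adjusted p = 1.62e-06). How reads that map to several loci were counted is not given, so U3B and U3D may hold the same reads. The library protocol names no step that keeps strand, so the table cannot assign the reads of HSFA9 and U3D to either strand. In no library did HSFA9 have more reads than U3D, so its counts show no excess over those of U3D. The rise at HSFA9 is therefore not given as a rise of its messenger RNA, and the source of the reads was not tested. The seed markers CRA1 and OLEO2 did not pass the test (adjusted p = 0.763 and 0.381), and CRU3 and OLEO1 were too low to be tested. Of the 71 snoRNA loci 23 were tested, of which U3B and U3D rose and 7 fell (median log2 -0.33), while the 4 tested ribosomal RNA loci all rose (median 1.08).

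**Figure D2:**
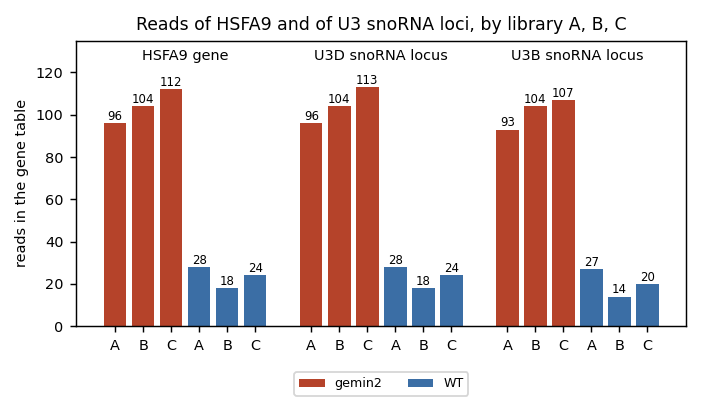
Reads in the gene table (vertical axis) of HSFA9, of the U3D locus that overlaps it on the opposite strand, and of the separate U3B locus, in each library. Bars of HSFA9 and U3D have equal heights except in gemin2 C (112 and 113), and all 3 loci are high in gemin2 and low in WT.

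Of the 6 class B and C factors, 2 rose and none fell in the edgeR test, beside 17.8% and 18.9% of all genes tested. HSFB1, the most highly expressed HSF of these plants per length (29.6 ± 0.974 RPKM in gemin2, 25.2 ± 1.93 RPKM in WT; RPKM is CPM per kilobase of the gene model), had 54.5, 52.5 and 51 CPM in gemin2 libraries A, B and C, against 45.7, 48.1 and 41.3 CPM in WT A, B and C. Its libraries did not overlap (log2 0.23, SE 0.06, adjusted p = 0.00878). HSFB1 shares its transcript with the upstream reading frame CPuORF49, which has identical counts in the table, so both entries are a single measurement. HSFB4, known as SCHIZORIZA for its role in root cell fate, was higher by 0.26 on the log2 scale (10.9 ± 0.701 CPM in gemin2, 9.1 ± 0.495 CPM in WT, adjusted p = 0.0422). That call was lost in DESeq2 (adjusted p = 0.19) and without gemin2 B, gemin2 C, WT A or WT B (0.11 to 0.118), and it stands beside root markers that moved in both directions. HSFC1 (log2 -0.02) and HSFB2B (-0.00) did not pass, and both share long stretches with a gene on the opposite strand (1423 and 465 bases). HSFB2A (0.07) and HSFB3 (-0.11), which had under 20 reads in each library, did not pass either.

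HSP93-III, also called ClpC2, is an HSP100 protein of the chloroplast stroma that takes part in protein import and turnover. It had 317.6, 328.5 and 318.6 CPM in gemin2 libraries A, B and C, against 221.5, 243.2 and 252.1 CPM in WT A, B and C. The WT libraries ranged more widely than the mutant ones, yet the lowest gemin2 library was well above the highest WT library (log2 0.43, SE 0.05, adjusted p = 1.57e-05). Of its 50-base stretches, 19.2% recur in a RefSeq transcript of AT3G48860, which had 31.1 ± 1.21 CPM in gemin2 and 26.2 ± 1.57 CPM in WT (log2 0.24, adjusted p = 0.00818), so part of the reads may be shared. HSP101, the cytosolic disaggregase needed for acquired heat tolerance, averaged 17.5 ± 1.16 CPM in gemin2 and 16.7 ± 0.409 CPM in WT (log2 0.07, SE 0.07, adjusted p = 0.503), with overlapping libraries.

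**Figure D3:**
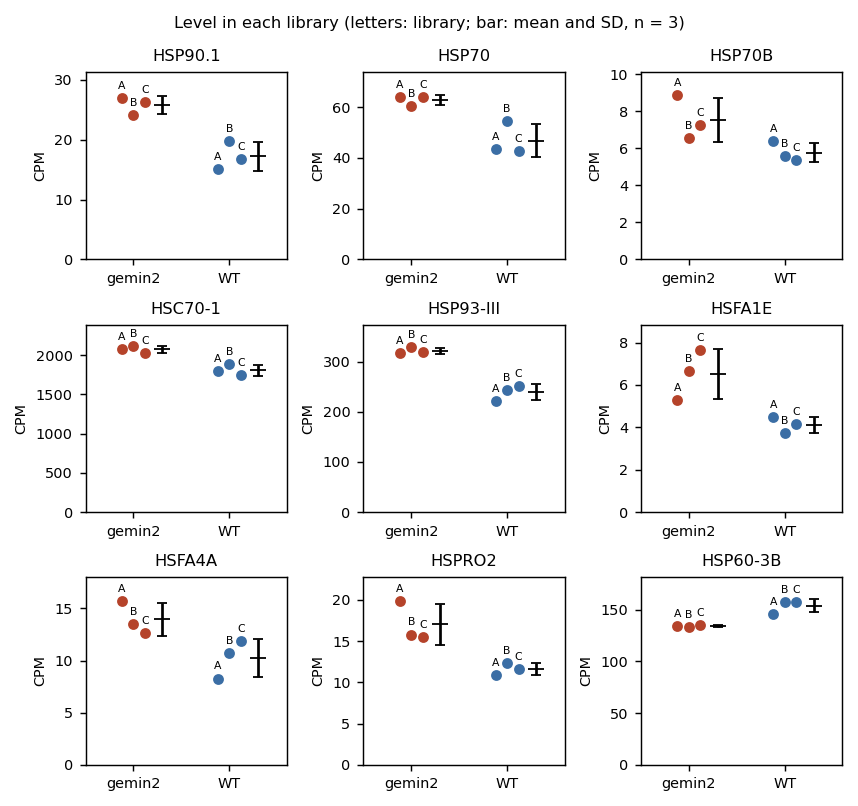
CPM on a linear axis from 0 in each library (letters) of 9 members, with gemin2 left of WT and the mean and SD (n = 3) beside the points. HSP60-3B lies lower in every gemin2 library than in any WT library, and all the other members shown lie higher.

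Of the 7 HSP90 genes, 2 rose, 1 fell and 4 did not pass, where 17.8% of all genes tested rose and 18.9% fell. The heat-induced cytosolic HSP90.1 rose most, with 27, 24.1 and 26.3 CPM in gemin2 libraries A, B and C, against 15.1, 19.9 and 16.7 CPM in WT A, B and C. WT B was the highest WT library and still lay below all gemin2 libraries (log2 0.57, SE 0.09, adjusted p = 0.000138). The log2 fold change stayed between 0.49 and 0.70 when any single library was left out. The constitutive cytosolic HSP90.2, HSP90.3 and HSP90.4 stand close together on chromosome 5 and share sequence. Of the 50-base stretches of their transcripts, 18.8%, 23.9% and 18.7% recur in other RefSeq transcripts, so their counts are uncertain to the extent that reads were split among them.

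HSP90.4 had 74.7, 75.1 and 78.3 CPM in gemin2 and 65.3, 68 and 69.7 CPM in WT (log2 0.17, SE 0.05, adjusted p = 0.013), without overlap. Its call was lost without gemin2 C (adjusted p = 0.0508) or WT A (0.0545). HSP90.2 went the other way, averaging 388.3 ± 14.8 CPM in gemin2 and 424.6 ± 7.56 CPM in WT (log2 -0.13, SE 0.05, adjusted p = 0.0454). Without gemin2 B, gemin2 C, WT B or WT C it no longer passed (adjusted p = 0.0716 to 0.156). HSP90.3 averaged 365.2 ± 13 CPM in gemin2 and 391.3 ± 6.61 CPM in WT (log2 -0.10, adjusted p = 0.111).

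The HSP90 genes of organelles did not pass the test. HSP90.5 of the chloroplast averaged 405.3 ± 8.34 CPM in gemin2 and 430.5 ± 32.8 CPM in WT (log2 -0.09, adjusted p = 0.243), and it was called lower when WT A was left out (log2 -0.15, adjusted p = 0.0367). HSP90.7 of the endoplasmic reticulum had a log2 fold change of -0.11 (adjusted p = 0.0952), and was also called lower without WT A (-0.15, adjusted p = 0.0302). HSP90.6 of the mitochondrion had 0.07. The HSP90 class as a whole took 33.9% to 34.7% of all member reads in gemin2 and 37.7% to 39.4% in WT.

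Of the 6 HSP70 genes, 3 rose and none fell in the edgeR test, where 17.8% of all genes tested rose and 18.9% fell. All gemin2 libraries lay above all WT libraries for 5 of the 6, against 23.4% of all genes tested. Of HSP70 genes outside the symbol rule, HSC70-7 (log2 -0.26), BIP2 (-0.21) and BIP1 (-0.16) fell, and Hsp70-2 (0.19) and Hsp70-15 (0.04) did not pass. HSC70-1, the constitutive cytosolic HSP70, was by far the most abundant member at 873.5 ± 17.44 RPKM in gemin2 and 762.5 ± 29.4 RPKM in WT, a WT level above 99.6% of the genes tested. It held 41.3% to 42.1% of all member reads in gemin2 and 37.2% to 39.4% in WT. Its values were 2079, 2112 and 2030 CPM in gemin2 libraries A, B and C, against 1802, 1884 and 1745 CPM in WT A, B and C. The difference was small but larger than the spread of the libraries (log2 0.20, SE 0.05, adjusted p = 0.0102).

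HSP70, a cytosolic gene that heat induces, had 63.9, 60.5 and 63.9 CPM in gemin2 libraries A, B and C, against 43.5, 54.5 and 42.6 CPM in WT A, B and C. As for HSP90.1, WT B was the highest WT library, below all gemin2 libraries (log2 0.42, SE 0.08, adjusted p = 0.000621). HSP70B, another heat-induced cytosolic gene, was 1.3-fold higher (7.55 ± 1.19 CPM in gemin2, 5.78 ± 0.538 CPM in WT, log2 0.38, adjusted p = 0.0387). WT A, at 6.38 CPM, came close to gemin2 B, at 6.54 CPM, and the call was lost in DESeq2 (adjusted p = 0.114) and without gemin2 A, gemin2 C, WT B or WT C (0.0545 to 0.177). Truncated HSP70T-2 (log2 0.29, adjusted p = 0.136), HSP91 of the HSP110 type (0.07, adjusted p = 0.237) and mitochondrial HSC70-5 (-0.06, adjusted p = 0.301) did not pass. Of the 50-base stretches of HSC70-5 and HSP91, 16.3% and 10.5% recur in other transcripts.

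After HSC70-1 the order of levels per length was led by 4 HSP90 genes. In gemin2 these were HSP90.2 (153.8 ± 5.87 RPKM), HSP90.5 (151.2 ± 3.11), HSP90.3 (150.7 ± 5.35) and HSP90.7 (132.6 ± 2.13). The first 3 did not differ beyond their SD. In WT they were HSP90.2 (168.2 ± 3), HSP90.3 (161.5 ± 2.73), HSP90.5 (160.6 ± 12.2) and HSP90.7 (143 ± 7), and HSP90.3 and HSP90.5 lay within their SD.

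The 3 HSP60 genes encode mitochondrial chaperonins and moved in both directions. HSP60-3B had 134.1, 132.8 and 134.8 CPM in gemin2 libraries A, B and C, against 146.2, 157.6 and 157.8 CPM in WT A, B and C. The gemin2 libraries were almost alike and all below WT (log2 -0.20, SE 0.05, adjusted p = 0.00315). HSP60-2 was higher by 0.16 on the log2 scale (81.2 ± 4.18 CPM in gemin2, 72.6 ± 3.91 CPM in WT, adjusted p = 0.0308), although gemin2 C, at 76.4 CPM, lay below WT C, at 76.9 CPM. Its call was lost in DESeq2 (adjusted p = 0.0707) and without gemin2 A, gemin2 B, WT A or WT B (0.077 to 0.14). HSP60-3A had a log2 fold change of 0.12 (adjusted p = 0.117).

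HSP60-3B also held the single member intron called in the intron test, in which intron reads are compared relative to the reads of their gene. The intron table used here covers chromosomes 1 and 2 and part of 3. It holds 98 introns of 19 members, of which 24 have no read, 5 had enough reads for the test and 1 was called higher. Over all 4938 introns tested, 5.93% were called higher and 3.46% lower, together 9.4%. The called intron is I014 (TAIR10, chromosome 3, 8671913 to 8671991, plus strand, 79 bases), the second to last of the 15 in the gene. Its sequence is shown with those of its neighbours I013 and I015, which are of similar length (TAIR10.1 sequence at the TAIR10 coordinates of the table, the terminal GT and AG in capitals).
HSP60-3B I013: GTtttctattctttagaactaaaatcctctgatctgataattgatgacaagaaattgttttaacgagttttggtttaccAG
HSP60-3B I014: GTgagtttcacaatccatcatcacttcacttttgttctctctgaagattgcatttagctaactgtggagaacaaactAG
HSP60-3B I015: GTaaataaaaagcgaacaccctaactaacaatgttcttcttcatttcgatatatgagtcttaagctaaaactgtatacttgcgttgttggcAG
I014 begins with GTGAGT, which no other of the 15 introns does, but most of the 15 have an opening of that length that none of the others shares. All 15 begin with GT and end with AG.

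I014 had 7, 16 and 10 reads in the gemin2 libraries A, B and C, and 1, 0 and 0 reads in the WT libraries. This came to 0.498 ± 0.182 intron reads per 100 gene reads in gemin2 and 0.016 ± 0.0277 in WT (SD, n = 3 each), so the intron stayed rare in both. The ratio of the summed reads relative to the gene was 35 (exact 95% interval 5.86 to 1420, counting error only), and edgeR's quasi-likelihood test gave an adjusted p of 0.00156. I014 met the minimum count of 5 only in the gemin2 libraries, so it entered the test through the group where it is high. Its call is therefore no independent support for a rise. The fitted log2 change of 4.68 rests on 1 WT read and is no bound. The authors' deposited table lists this intron with a log2 fold change of 4.57 and a false discovery rate of 5.13e-06. The other 14 introns of HSP60-3B together had 20 reads in gemin2 and 19 in WT. With a minimum count of 20 the intron was not tested.

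**Figure D4:**
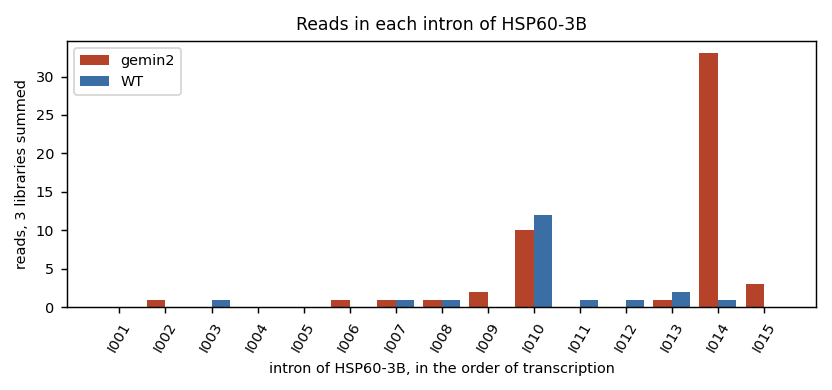
Reads summed over 3 libraries (vertical axis) in each of the 15 introns of HSP60-3B, in the order of transcription, for gemin2 (red) and WT (blue). I014 holds 33 reads in gemin2 and 1 in WT, while I010, the intron with most reads in WT, has 10 and 12.

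The 4 other tested introns did not pass: HSFA1E I001 (log2 -0.70 relative to the gene, SE 0.50), HSFA1D I002 (-0.14), HSFC1 I001 (0.00) and HSFA7A I001 (0.00). All other member introns together, 97 without I014, had 242 reads in gemin2 and 226 in WT. Of annotated alternative splicing bins, the members have 12, in 11 genes, and 6 were tested. None was called in edgeR, none had an unadjusted p below 0.05, and DESeq2 called none either, where edgeR called 2.6% of all 4648 bins tested higher and 2.11% lower, together 4.71%. The smallest p was 0.0744, for the alternative 3′ site bin E015 of HSP90.5 (4.48 ± 0.138 reads per 100 gene reads in gemin2, 4.86 ± 0.0986 in WT). The next was the alternative 3′ site bin E004 of HSFA1B, with 7.07 ± 1.42 and 5.23 ± 2.22 reads per 100 gene reads in gemin2 and WT (edgeR adjusted p = 0.713). The retained-intron bin E002 of HSC70-1, the bin with most reads, held 27.4 ± 0.106 reads per 100 gene reads in gemin2 and 27.6 ± 0.231 in WT.

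Small HSPs were close to the limit of detection in both genotypes. The 7 genes together had 54, 51 and 68 reads in the gemin2 libraries A, B and C, and 38, 46 and 36 reads in the WT libraries. The single one tested, cytosolic HSP18.2, had most of them, 27, 34 and 35 reads in gemin2 and 31, 35 and 23 in WT (log2 -0.01, SE 0.21, adjusted p = 0.986). The others did not pass the filter on low counts and were read as sums over 3 libraries. Cytosolic HSP17.4 had 40 reads in gemin2 and 20 in WT, a ratio of 1.84 after scaling by library size (exact 95% interval 1.05 to 3.33, counting error only), but gemin2 B, with 7 reads, lay within the WT range of 5 to 8. Without gemin2 B it passed the filter, through gemin2 A and C only, and was called higher in edgeR (log2 1.22, adjusted p = 0.0282). That call depends on leaving out the gemin2 library inside the WT range and is no support for a rise. It also overlaps a gene on the opposite strand by 60 bases, and 61.5% of its 50-base stretches recur in other transcripts.

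HSP17.6A had 19 reads in gemin2 and 7 in WT (ratio 2.5, interval 1.01 to 7.05), and HSP17.6II had 7 and 1 (6.46, 0.829 to 291). HSP22.0 of the endoplasmic reticulum had 8 reads in gemin2 and 3 in WT (2.46, 0.59 to 14.4). HSP23.6-MITO and chloroplast HSP21 had 2 and 1 reads in gemin2 and none in WT. Of the HSFs below the filter, HSFA6A had 4, 3 and 2 reads in gemin2 and 0 in each WT library, for which the exact 95% lower limit of the ratio was 1.82, again for counting error only. It was called higher in edgeR without the filter on low counts (adjusted p = 0.0247). HSFA7B had 2, 3 and 4 reads in gemin2 and 1 in each WT library (2.77, 0.691 to 15.9).

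**Figure D5:**
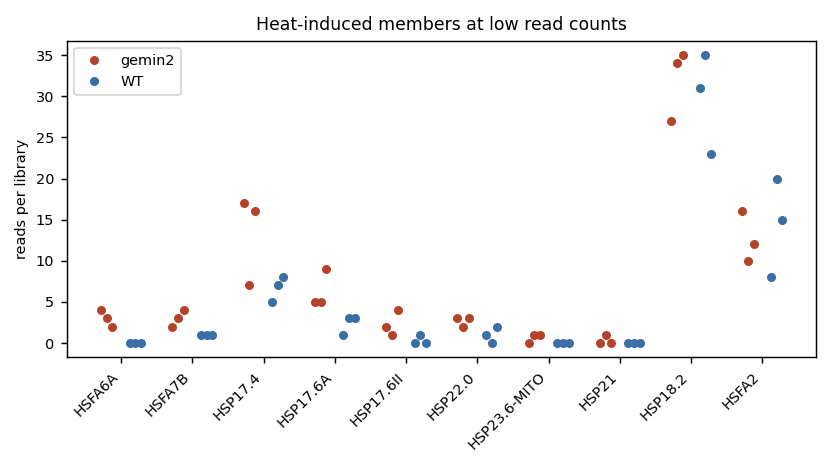
Reads per library (vertical axis) of the 8 members below the filter on low counts and of HSP18.2 and HSFA2, which were tested, with gemin2 (red) left of WT (blue). Only HSP18.2, HSFA2 and, in gemin2 A and C, HSP17.4 reach 10 reads in a library.

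Among the other members, HSPRO2 had 19.9, 15.8 and 15.4 CPM in gemin2 libraries A, B and C, against 10.9, 12.4 and 11.7 CPM in WT A, B and C. It rose without overlap (log2 0.54, SE 0.10, adjusted p = 0.000759), with gemin2 A above the other two mutant libraries. HSPC300 averaged 9.44 ± 0.392 CPM in gemin2 and 10.8 ± 0.804 CPM in WT (log2 -0.19, adjusted p = 0.125). HSP1, at 6 ± 0.251 and 5.98 ± 0.379 CPM in gemin2 and WT (log2 0.00, adjusted p = 0.996), shares 442 bases with a gene on the opposite strand.

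Genes that work with the chaperones were taken as 4 lists of 45 loci, 43 of them tested, of which 9 rose (20.9%) and 5 fell (11.6%) in gemin2, beside 17.8% and 18.9% of all genes. Of 18 co-chaperones of HSP70 and HSP90, 3 rose and none fell in the edgeR test. HOP2, which bridges HSP70 and HSP90, had a log2 fold change of 0.22 (adjusted p = 0.0033) and BAG7, a BAG domain regulator of HSP70 proteins in the endoplasmic reticulum, 0.21 (adjusted p = 0.00411). The third was MGE1 (0.29), a GrpE-type exchange factor. The J proteins ATJ2 and ATJ3, which stimulate HSP70, did not pass (0.01 each).

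Of 13 tested endoplasmic reticulum chaperones and stress sensors, 3 were called higher and 4 lower, where 17.8% of all genes tested rose and 18.9% fell. CNX2, a calnexin, rose (log2 0.29, adjusted p = 0.000794), as did the stress sensor IRE1A (0.31, adjusted p = 0.00122) and its target BZIP60 (0.27). ERDJ3B, a J protein of the endoplasmic reticulum, fell (-0.38, adjusted p = 8.19e-05), as did BIP2 (-0.21, adjusted p = 0.00561), an HSP70 of that compartment, with BIP1 (-0.16) and CNX1 (-0.18). The pair of calnexins thus moved in opposite directions, CNX2 up and CNX1 down.

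Of 6 organellar chaperonin and CLPB genes, CLPB4, a mitochondrial HSP100, rose (log2 0.47, adjusted p = 6.47e-05), and CPN20, the chloroplast co-chaperonin, fell (-0.22, adjusted p = 0.0101). Of 6 tested other heat-induced genes, GOLS1, a galactinol synthase that HSFs activate, rose by 0.70 (24.6 ± 0.274 CPM in gemin2, 15.1 ± 0.711 CPM in WT, adjusted p = 1.43e-06). DREB2C was also called higher (log2 1.03, SE 0.36, edgeR adjusted p = 0.0336), with 47 reads in gemin2 and 21 in WT over all libraries. It had 18, 15 and 14 reads in gemin2 libraries A, B and C, and 8, 5 and 8 in WT. DREB2C passed the filter on low counts only through the gemin2 libraries, so its call is no independent support for a rise. The heat-induced coactivator MBF1C (-0.07), HSA32 (-0.15), DREB2A (0.22) and DREB2B (-0.11) did not pass, and APX2 and BIP3 were below the filter.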

How the data were processed

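Polyadenylated RNA of whole plants was sequenced from TruSeq libraries, per the labels' protocols, which name no strand-marking step. Read counts for genes, annotated splicing bins and introns were deposited by the authors as whole numbers, not normalised. Per the file headers, further tables hold their own log2 fold changes and adjusted p-values (FDR). TopHat2 2.0.9, R 3.0.2, edgeR 3.4.2 and TAIR10 are named in the submitters' processing notes, while neither the counting tool nor the read length is given in the sources used here. The deposited intron table used here ends at 65535 introns and holds none of chromosomes 4 and 5. Columns carry letters A to C that no label ties to replicate numbers, so no pairing was assumed, and 0 columns of sample values were left out. Nothing says that libraries came from separate cultures, so the spread behind the p-values is that of these samples and may be technical.

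The gene test was edgeR 4.0.16 under R 4.3.3 (filterByExpr, minimum count 10, TMM, quasi-likelihood F test, two-sided, Benjamini-Hochberg over all genes, threshold 0.05). SE is the log2 fold change over the square root of F. CPM uses TMM library sizes. Introns and bins were tested with the gene's count as offset (gene mean of at least 20 reads, minimum count of 5). DESeq2 1.42.0 was the alternative tool, and the fits were checked on simulated counts. The TAIR10.1 sequence had GT-AG ends at 64456 of 65405 introns with a strand (98.5%). The members and lists were chosen with earlier results of these data known. Named are all members called, with each library for the 12 smallest p, the 2 most abundant uncalled members per class, untested members by reads, the 2 higher and 2 lower partners of smallest p per list, and called introns and bins (where none, the 2 of smallest p). Other genes and HSFA2, HSFA7A and U3 loci were added after their values were seen. The precision of a value follows from its reads: 1 read was worth 0.0579 to 0.0715 CPM. Intervals and floors cover counting error only.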

Additional observations from a re-analysis of the deposited data

How the results depend on the processing

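The count of members called higher, 14, was 10 in DESeq2, 15 without the filter on low counts and 10 to 12 when any library was left out. Members called lower, 2, ranged from 1 to 4 when any library was left out, and were 2 under every other scaling, filter and tool. Without the 9 members that overlap another locus, an alternative chosen after seeing the data, 12 of 33 tested were higher and 2 lower. Of 16 called members, 10 kept their call in all 13 alternatives: HSFA9, HSFA1E, HSFA4A, HSFB1, HSP93-III, HSP60-3B, HSP70, HSC70-1, HSP90.1 and HSPRO2. Over all 49 members and these alternatives, calls were lost 28 times, by 6 members, and gained 4 times (HSFA6A without the filter, HSP17.4 without gemin2 B, HSP90.5 and HSP90.7 without WT A). No call of the 30 named members and introns reversed. DESeq2 called fewer of all genes, 2552 higher and 2763 lower, against 3698 and 3928 in edgeR. Introns called higher were 0 with a minimum count of 20, under which I014 of HSP60-3B was not tested, and its log2 change was 4.13 to 6.54 in the alternatives that gave a value. Bins called higher were 2 without the gene's count as offset (HSP93-III E011 and HSC70-1 E002), a setting that leaves the change of the gene in the value. Chaperone partners called higher, 9, were 7 in DESeq2. No label ties the column letters to the replicate numbers, so the main fit had no replicate block. A replicate block on the letters, added after seeing the data, left 14 members higher and 1 lower, because HSP90.2 no longer passed (adjusted p = 0.0586). The letters gave no sign of pairing: deviations of same-letter libraries from their genotype means correlated across genes at 0.01, -0.02 and -0.05 for A, B and C, and among the 6 libraries only WT A correlated best with its own letter. Depth limits the 8 untested members most.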

Other observations

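RefSeq names 8 further loci after heat shock proteins or their partners under other symbols, and they were chosen after the data had been seen. ATHSP93-V (ClpC1), the paralogue of HSP93-III in the chloroplast, rose in gemin2 too, with 1538 ± 52.9 CPM in gemin2 and 1271 ± 29.2 CPM in WT (edgeR log2 0.27, SE 0.05, adjusted p = 0.000825). HSC70-7, an HSP70 of the chloroplast, fell to 362.4 ± 12.3 CPM in gemin2, against 434.7 ± 28.8 CPM in WT (log2 -0.26, SE 0.05, adjusted p = 0.00153). The HSC70-interacting protein genes AT3G17880 and AT4G22670 rose (log2 0.20 and 0.23, adjusted p = 0.0185 and 0.00123). Hsp70-2, the neighbour of HSC70-1, had a log2 fold change of 0.19 (adjusted p = 0.168) and Hsp70-15 0.04 (0.556), and neither passed. HSP70T-1 had 4 reads in gemin2 and 2 in WT and was not tested. CLPB4, named HSP98.7 there, is given among the partners.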
